A study of Mus musculus with 16 samples.

Results

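Scgb1a1 encodes the main secreted protein of club cells, the secretory cells of the small airways, and its level differed widely between small cell lung cancers of the same mouse model. The 16 tumors of the series were ranked by Scgb1a1 CPM (the estimated count scaled to the sum of all counts of that tumor), and the 5 highest were set against the 5 lowest with both genotypes pooled. These 10 tumors of 16 were therefore chosen on the level of a transcript in the same libraries, so Scgb1a1 is given as a description and is left out of the expression counts and lists. The question was which other transcripts followed this airway marker across tumors and which transcripts of the tumor cells did not.

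All tumors arose in mice of mixed C57BL/6;129/Sv background after deletion of Trp53 and Rb1, and in all of them CRISPR had mutated one of 2 relatives of Rb1. These relatives are p107, encoded by Rbl1 (8 tumors from 4 mice), and p130, encoded by Rbl2 (8 tumors from 3 mice). The label names neither the promoter nor the virus that drove the recombinase, and gives neither age nor sex. Tumors were cut out of the lung at necropsy and flash-frozen, and mRNA libraries were made from total RNA of the whole piece. The number in a tumor's title, which follows sgp107 or sgp130 as in sgp107_6630T2, was read as its mouse, so tumors of 1 mouse share their source. In bulk RNA of this kind, fewer cells of a type and less RNA per cell cannot be told apart.

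Small cell lung cancer is a neuroendocrine tumor: its cells carry secretory granule proteins such as chromogranins and synaptic proteins such as synaptophysin. Airways around such tumors are lined by club cells, which secrete secretoglobins and are rich in enzymes that detoxify inhaled compounds, and by ciliated cells, which are run by the transcription factor FOXJ1. Alveoli are lined by type 2 cells, which make surfactant, and by flat type 1 cells.

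The 5 tumors of highest Scgb1a1 were all p107-targeted. Their Scgb1a1 levels were 7268 CPM in sgp107_6630T2, 3849 in sgp107_6631T2, 3234 in sgp107_6630T3, 2629 in sgp107_6631T1 and 2311 in sgp107_6629T1. The 5 lowest were 3 p130-targeted tumors from 3 mice and both p107-targeted tumors of mouse sgp107_6627. Their levels were 740.5 CPM in tumor sgp130_6638T4, 135 in tumor sgp130_6637T1, 103 in tumor sgp107_6627T2, 75.9 in tumor sgp107_6627T1 and 52.5 in tumor sgp130_6697T1. Among the 6 tumors between, of which 5 were p130-targeted, the level ran from 749.3 to 2230 CPM. The edges of the ranking were narrow, since the fifth highest tumor stood at 2311 CPM and the next at 2230, and the fifth lowest at 740.5 CPM and the next at 749.3. The wide gap lay inside the low group, between 4 tumors at 52.5 to 135 CPM and the other 12 at 740.5 CPM or more. When Rn45s was left out of the total, 5 of the 5 highest and 4 of the 5 lowest tumors were the same, and with TMM factors 4 and 5 were.

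Several other features moved with the ranking. The first principal component of the tested genes, with 30.3% of the variance, placed the 4 tumors of lowest Scgb1a1 at −112.9 to −26.4 and the other 12 at −1.3 to 44.1. Y-linked transcripts were present in all 5 high tumors and in 3 of the 5 low tumors. Genotype, mouse and these transcripts cannot be told apart from Scgb1a1 in the pooled comparison, so results are also given within mice, within genotypes and among the 12 tumors of higher Scgb1a1. Libraries held 12700334 to 34620979 estimated counts. Rn45s, a ribosomal precursor, took 0.71% to 7.75% of counts in the high and 0.66% to 4.31% in the low tumors.

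**Figure D1:**
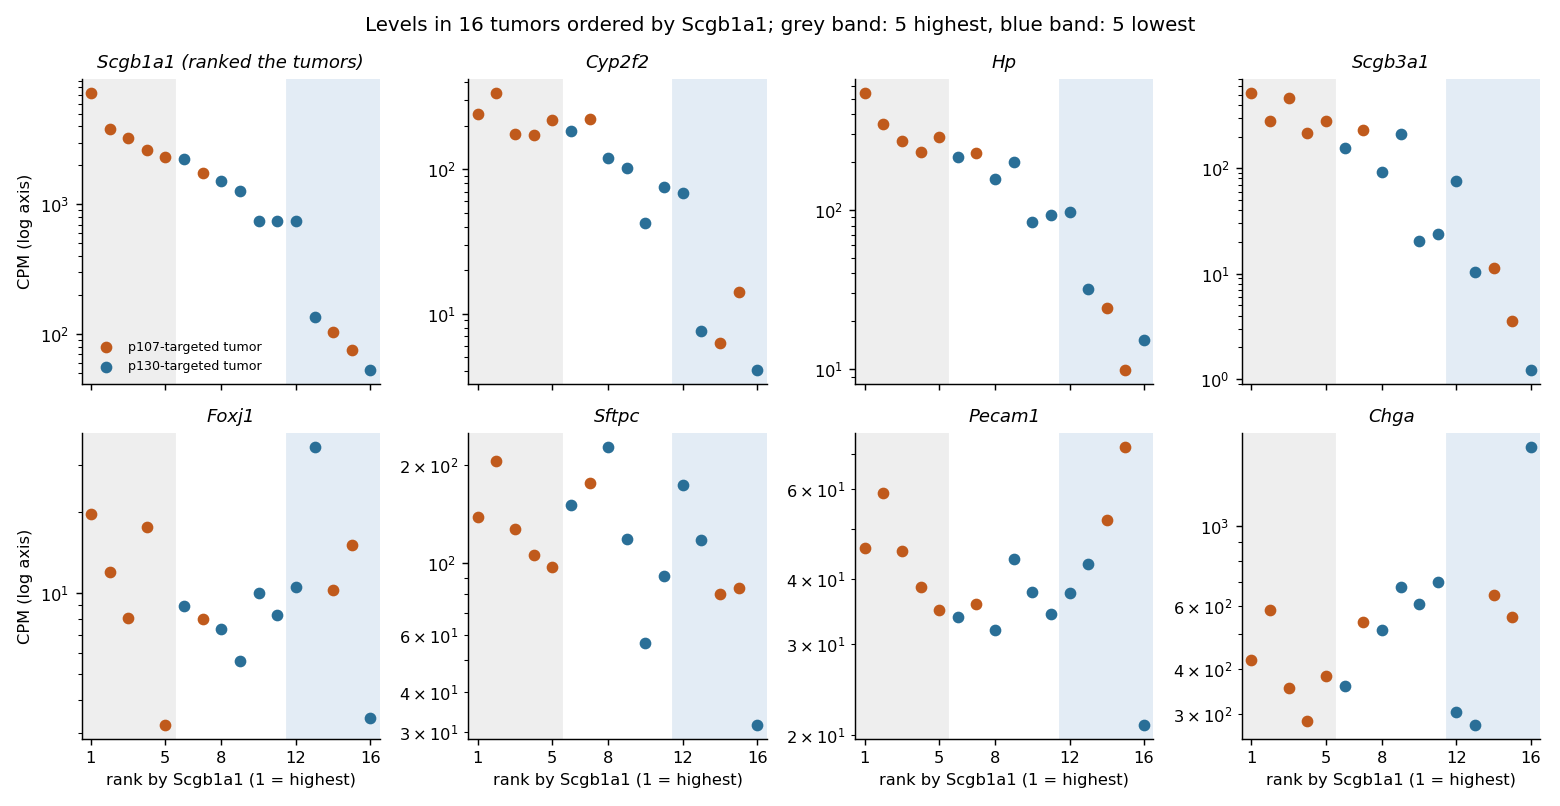
CPM on a log axis of 8 genes in each of the 16 tumors, ordered from the highest (1) to the lowest (16) Scgb1a1 and colored by genotype. The club cell genes Cyp2f2, Hp and Scgb3a1 descend with the ranking, whereas Foxj1 (ciliated), Sftpc (alveolar type 2), Pecam1 (endothelial) and Chga (neuroendocrine) overlap between the 5 highest and the 5 lowest tumors.

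Between the 5 highest and 5 lowest tumors, edgeR's quasi-likelihood test on 14945 genes called 185 higher (1.24%) and 103 lower (0.689%) at an adjusted p under 0.05. In 523 genes, or 3.5%, every high tumor lay above every low tumor. The calls rested on few libraries: leaving out 1 tumor at a time gave 1 to 567 genes higher and 0 to 478 lower. The count of higher genes was 567 without sgp130_6638T4, 94 to 101 without sgp107_6627T1, sgp107_6629T1, sgp107_6630T2 or sgp107_6631T1, and 1 to 8 without sgp107_6627T2, sgp107_6630T3, sgp107_6631T2, sgp130_6637T1 or sgp130_6697T1. Splitting all 16 tumors into 8 highest and 8 lowest called 0 genes in each direction by edgeR, with 2156 at an unadjusted p under 0.05; DESeq2 on the 5 against 5 called 833 higher and 932 lower. The p-values measure how far each gene followed a ranking read from the same libraries, and 3 high mice and 4 low mice stand behind them.

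Club cell transcripts followed Scgb1a1 together. Of 28 other club and secretory genes listed, 25 passed the filter on low counts, 24 of these had a positive fold change and 11 rose past the threshold, against the 1.24% of all genes called higher. These calls, and those of single club genes given next, treat tumors of 1 mouse as independent. When voom modelled the mouse as a random effect, 25 of the 25 had positive values but 0 passed the threshold (20 at an unadjusted p under 0.05, adjusted p = 0.0575 to 0.840), and with counts summed per mouse 0 passed as well. The median log2 fold change of the 25 genes was 2.86, against −0.02 over all tested genes, and in 16 of them all 5 high tumors lay above all 5 low ones. The summed CPM of the list was 2723 to 5178 in the high tumors and 299 to 1902 in the low tumors, with no overlap. The 6 tumors between lay at 1527 to 3885, across the edge of both groups. The 3 members not tested were Lypd2, Reg3g and Tff2, which reached at most 7.16 CPM in any tumor.

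Cyp2f2, a club cell cytochrome P450, stood at 241, 339, 176, 172 and 218 CPM in the high tumors, listed from sgp107_6630T2 to sgp107_6629T1. The low tumors, listed from sgp130_6638T4 to sgp130_6697T1, held 68.8, 7.63, 6.31, 14.1 and 4.06 CPM. The groups did not overlap, and sgp130_6638T4, the low tumor with the most Scgb1a1, was also the low tumor with the most Cyp2f2. Its log2 fold change was 3.51 ± 0.74 (SE, 5 against 5, edgeR adjusted p = 0.0416), an 11.4-fold difference with a 95% interval of 3.66 to 35.5. The exact permutation test gave 0.00794, the smallest it can give for 5 against 5 tumors. Hp, the hemoglobin-binding haptoglobin, held 545, 345, 270, 231 and 289 CPM in the high tumors. In the low tumors it was 97.4, 31.7, 24.1, 9.85 and 15.4 CPM, again without overlap and with sgp130_6638T4 on top. Its log2 fold change was 3.26 ± 0.59 (edgeR adjusted p = 0.0294).

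Most of the 11 club genes that rose encode enzymes, among them Cyp2f2. The carbonyl reductase gene Cbr2 was 197 to 552 CPM in the high and 16.2 to 97.3 in the low tumors (log2 fold change 3.17 ± 0.53, edgeR adjusted p = 0.0259). The aldehyde oxidase gene Aox3 ranged over 16.6 to 69.9 against 1.33 to 7.29 CPM (3.58 ± 0.62, edgeR adjusted p = 0.0274). The flavin monooxygenase gene Fmo2 rose by 2.66 ± 0.43 on the log2 scale and the P450 gene Cyp4b1 by 2.75 ± 0.47 (edgeR adjusted p = 0.0253 and 0.027). Pon1, the paraoxonase, reached 27.9 to 89.3 CPM in the high tumors and 0.579 to 10.5 in the low ones (4.14 ± 0.92, edgeR adjusted p = 0.0484). Outside the enzymes, the tight junction gene Cldn10 (3.72 ± 0.52, adjusted p = 0.0253), the matrix protein gene Chad (3.65 ± 0.64, adjusted p = 0.0286) and Pigr, the transporter of polymeric immunoglobulin (4.23 ± 0.86, adjusted p = 0.0397), were past the edgeR threshold.

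The secretoglobins themselves narrowly missed it. Scgb3a1 stood at 520, 278, 467, 216 and 281 CPM in the high tumors and at 75.8, 10.5, 11.2, 3.57 and 1.21 in the low tumors. Every high tumor lay above every low tumor, and the log2 fold change was 4.14 ± 0.96 (edgeR adjusted p = 0.0528). Scgb3a2 ranged over 150 to 569 against 7.08 to 137 CPM, also without overlap (3.16 ± 0.84, edgeR adjusted p = 0.0725). Other members of the list overlapped between the groups. The airway defense genes Bpifa1 and Bpifb1 had log2 fold changes of 1.32 ± 0.85 and 0.78 ± 0.73 with overlapping tumors (edgeR adjusted p = 0.384 and 0.557). The mucin gene Muc5b did not overlap but missed the threshold (1.92 ± 0.58, edgeR adjusted p = 0.0941). The aldehyde dehydrogenase genes Aldh1a1 and Aldh1a7, near-identical copies between which reads may be divided wrongly, overlapped between groups, at 128 to 322 against 43.2 to 237 CPM and 314 to 801 against 54.6 to 640 CPM. Cyp2a5 was the single tested member with a negative value, −1.60 ± 1.36 (edgeR adjusted p = 0.516), and it reached 157 CPM in a low tumor.

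**Figure D2:**
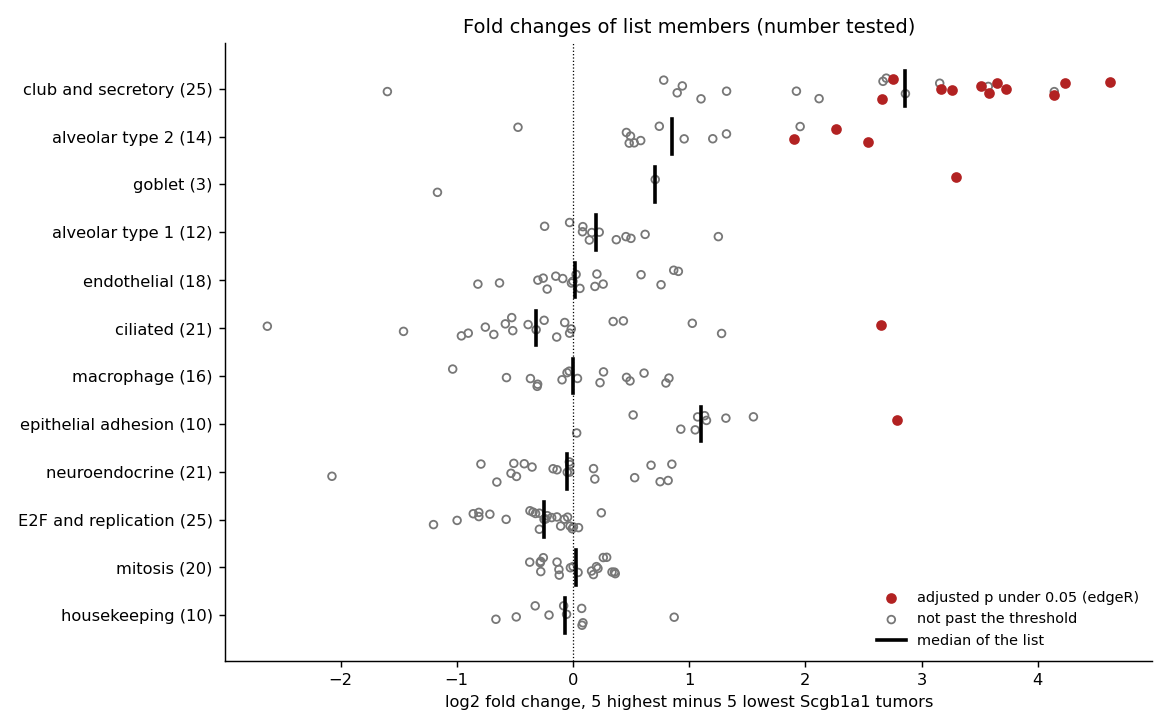
Log2 fold change between the 5 highest and 5 lowest tumors for each tested member of 12 gene lists, with the number tested in brackets; filled points passed an edgeR adjusted p of 0.05 and black bars are list medians. The 25 club and secretory genes center at 2.86 with 11 filled points, while the ciliated, neuroendocrine, mitosis and housekeeping lists center between −0.32 and 0.02.

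The 6 tumors between had no part in the choice of genes, and the higher genes kept their direction there. Of the 185 genes called higher, 181 were tested among these 6 tumors and 148, or 81.8%, had a positive slope on Scgb1a1, against 52.2% of all genes. Without tumor sgp107_6629T2, the single p107 tumor of the 6, the share was 70.2%. Of the 103 genes called lower, 95 were tested and 49, or 51.6%, had a negative slope, against 47.8% of all genes. The genes called lower were thus near the share of all genes, and without tumor sgp130_6697T2 theirs was 34.7%. Of 26 club and secretory genes tested there, 24 had a positive slope, with a median of 4.20 per mean difference in Scgb1a1 between the high and low groups (4.72 on the log2 scale). No slope over 6 tumors passed the edgeR threshold after adjustment, with 154 genes at an unadjusted p under 0.05, 9 of them club and secretory genes.

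Club genes also followed Scgb1a1 when the 4 tumors that stood apart at 52.5 to 135 CPM were left out. The other 12 tumors are the 6 between, the 5 high tumors and low tumor sgp130_6638T4. The high tumors and sgp130_6638T4 had a part in choosing the called genes, so this fit is no separate test of those genes. Across the 12 tumors, 157 of 15494 genes rose with Scgb1a1 (1.01%) and 2 fell (0.0129%) by edgeR. Of 26 club and secretory genes 12 rose, with a list median of 3.9. Hp (3.66, adjusted p = 9.92e-05), Pon1 (5.0, adjusted p = 0.000109), Aox3 (4.61, adjusted p = 0.000198) and Cyp4b1 (4.82, adjusted p = 0.000482) had the smallest edgeR p-values of the list, each as a log2 change for the mean high-to-low difference. The transcription factor gene Elf5 (4.05, adjusted p = 0.00253), Ahr, which encodes the sensor of aryl hydrocarbons (2.77, adjusted p = 0.0047), and Selenbp1 (4.78, adjusted p = 0.000215) also rose by edgeR in these 12 tumors. Elf5, Ahr and Selenbp1 were chosen on the pooled comparison. In the 6 tumors between alone their changes were 3.18 ± 1.74, 1.31 ± 1.23 and 2.77 ± 1.25, none past the threshold.

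Tumors of the same mouse share genotype, host and the presence or absence of Y-linked transcripts. Scgb1a1 differed by 16.5 times between tumors of mouse sgp130_6637, by 14.3 times in mouse sgp130_6697 and by 1.33 to 2.25 times in the other 5 mice. Within-mouse slopes therefore rest largely on mice sgp130_6637 and sgp130_6697. With the mouse as a fixed block over all 16 tumors, edgeR called 8 genes of 14856 that rose with Scgb1a1 (0.0539%) and none that fell, with 827 and 942 at an unadjusted p under 0.05. The 8 were Hp, Pon1, Cbr2, Aox3, Cyp2f2 and Scgb3a1 from the club list, Gabrp, a subunit of the GABA-A receptor, and Atp6v1c2, a subunit of the proton pump. Gabrp and Atp6v1c2 were named after their values were seen. Gabrp had the smallest within-mouse adjusted p, 0.00106 by edgeR, with a change of 4.34 ± 0.38. It stood at 289, 215, 155, 90.5 and 123 CPM in the high tumors and at 37.3, 5.92, 3.40, 1.36 and 3.0 CPM in the low ones, without overlap. The tumor of highest was also set against the tumor of lowest Scgb1a1 of each mouse. For the 8 genes this is a description, since the within-mouse fit on the same tumors chose them. Gabrp, Hp, Scgb3a1, Pon1 and Atp6v1c2 were higher in 7 of 7 mice, though Pon1 was nearly equal in mouse sgp130_6638 (10.49 and 10.46 CPM). Cbr2, Aox3 and Scgb3a2 were higher in 6 of 7 and Cyp2f2 in 5, whereas Foxj1 was higher in 2 of 7. Of the 25 club and secretory genes tested, 24 had a positive within-mouse slope, with a median of 3.08.

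**Figure D3:**
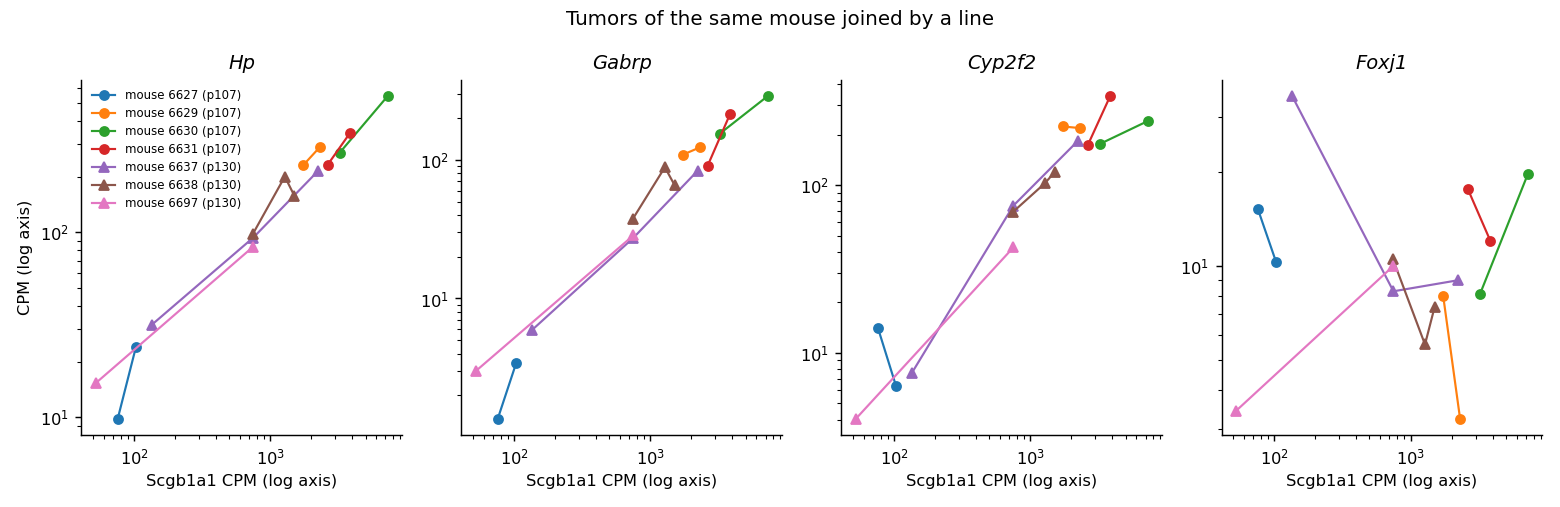
CPM of Hp, Gabrp, Cyp2f2 and Foxj1 against Scgb1a1 CPM, both on log axes, with the tumors of each of the 7 mice joined by a line (circles p107, triangles p130). The lines of Hp and Gabrp, which were chosen by the within-mouse fit on these tumors, climb from lowest to highest Scgb1a1 in 7 of 7 mice. That of Foxj1 does so in 2.

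Club genes also rose with Scgb1a1 in each genotype alone, in fits that take tumors of a mouse as independent. Mouse sgp107_6627 supplied both p107 tumors of low Scgb1a1 (75.9 and 103 CPM), so the p107 fit largely sets that mouse against the other p107 mice. Over the 8 p107 tumors, Scgb1a1 as a continuous term gave 605 genes that rose (3.87%) and 748 that fell (4.79%) of 15621, and 18 of 26 club and secretory genes rose. Of the 8 p130 tumors, sgp130_6637T1 and sgp130_6697T1 stood at 135 and 52.5 CPM of Scgb1a1 and the others at 740.5 CPM or more. The p130 fit thus largely sets those tumors against the rest. The within-mouse fit drew on the same tumors, so the p130 fit is no separate test. Over the 8 p130 tumors, 11 genes rose (0.0704%) and 14 fell of 15632. Of the 11 that rose, 4 were on the club list: Cyp2f2 (adjusted p = 0.00114), Hp (adjusted p = 0.00114), Cbr2 (adjusted p = 0.00363) and Pon1 (adjusted p = 0.0134), all by edgeR.

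The bases upstream of the within-mouse club genes are shown because these genes moved together, and to place 3 short motifs of airway transcription factors on them. The windows are the 250 bases before the annotated start from RefSeq on GRCm38.p6, another build than the mm9 of the counts. Capitals mark matches, on either strand, to the forkhead motif TGTTTAC or TGTTTGC, the C/EBP motif TTGCNNAA or TTNCGCAA, and the NKX2-1 motif CACTTGA or CACTCAA. Cyp2f2 lies on the plus strand (chr7:27119705-27119954), Scgb3a1 on the plus strand (chr11:49663345-49663594) and Pon1 on the minus strand (chr6:5193947-5194196).
Cyp2f2: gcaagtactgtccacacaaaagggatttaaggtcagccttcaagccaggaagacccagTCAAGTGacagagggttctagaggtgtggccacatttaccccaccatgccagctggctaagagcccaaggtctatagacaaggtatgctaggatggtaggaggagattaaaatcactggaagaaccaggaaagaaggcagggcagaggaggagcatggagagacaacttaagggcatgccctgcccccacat
Scgb3a1: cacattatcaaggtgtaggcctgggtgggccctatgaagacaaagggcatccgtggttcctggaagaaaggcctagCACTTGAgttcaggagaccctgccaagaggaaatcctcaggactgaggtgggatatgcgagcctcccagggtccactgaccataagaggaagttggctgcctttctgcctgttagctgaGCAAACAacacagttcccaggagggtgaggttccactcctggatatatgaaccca
Pon1: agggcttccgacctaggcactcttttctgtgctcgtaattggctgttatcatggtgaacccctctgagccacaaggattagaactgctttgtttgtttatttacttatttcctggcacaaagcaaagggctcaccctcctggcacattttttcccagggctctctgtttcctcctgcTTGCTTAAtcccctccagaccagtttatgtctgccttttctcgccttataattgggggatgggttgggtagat
The Cyp2f2 window held 1 NKX2-1 match, that of Scgb3a1 1 NKX2-1 and 1 forkhead match, and that of Pon1 1 C/EBP match. The windows of Cbr2 and Aox3 held none of the 3. Of 21 club and secretory genes with a window, 8 held the C/EBP motif (38.1%), against 10.8% of 27025 genes, 4 the NKX2-1 motif (19.0% against 5.96%) and 4 the forkhead motif (19.0% against 8.22%). For these motif counts Scgb1a1 was not excluded from the club set. The half-site GTTGCCA of RFX factors, which act in ciliated cells, was in 0 of these 21 windows, in 7 of 24 ciliated genes (29.2%) and in 4.19% of all genes. The forkhead motif was in 6 of the 24 ciliated genes (25.0%), a larger share than in the club set. C/EBP and NKX2-1 motifs were in 2 of the 24 each (8.33%). A match is a run of letters, not evidence of binding.

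Ciliated cell transcripts overlapped between the groups with 1 exception among those tested. Foxj1 stood at 19.7, 12, 8.10, 17.7 and 3.23 CPM in the high tumors and at 10.5, 35.0, 10.3, 15.2 and 3.42 CPM in the low tumors. The groups overlapped throughout, with the highest level in low tumor sgp130_6637T1 (log2 fold change −0.25 ± 0.59, edgeR adjusted p = 0.842). Of 30 listed ciliated genes, 21 were tested, 5 had a positive fold change and 1 rose, against 1.24% of all genes. Their median was −0.32, and the summed CPM was 159 to 209 in the high and 129 to 440 in the low tumors. The one that rose was Dnahc11, a dynein heavy chain, at 1.97 to 5.4 against 0.281 to 1.19 CPM (2.65 ± 0.48, edgeR adjusted p = 0.0294). Among the 6 tumors between 7 of 21 had a positive slope, and within mice 8 of 21. The sign of the median was not stable: without low tumor sgp130_6637T1 it was 0.33, and with the mutated gene as a covariate 0.83.

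Basal cell markers gave no signal to compare. None of the 7 passed the filter on low counts, their summed CPM was at most 2.83 in any of the 10 tumors, and Krt5 was at 0 in all 10. Of the goblet genes 3 were tested, and Muc5ac, the mucin of goblet cells, rose from 0.0566 to 0.706 CPM in the low tumors to 1.91 to 4.63 in the high ones (3.29 ± 0.58, edgeR adjusted p = 0.0283). Muc5ac was the 1 goblet gene called, against 1.24% of all genes called higher.

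Surfactant transcripts divided. Sftpb stood at 140, 201, 155, 128 and 217 CPM in the high tumors and at 101, 29.8, 35.1, 31.3 and 27.1 in the low ones. The groups did not overlap, and 4 of the 5 low tumors lay close together with sgp130_6638T4 above them (1.91 ± 0.36, edgeR adjusted p = 0.0351). Sftpd ranged over 68.0 to 221 against 10.7 to 56.6 CPM (2.26 ± 0.47, edgeR adjusted p = 0.0416), and Sfta2 rose too (2.54 ± 0.53, adjusted p = 0.0413). Surfactant proteins B and D are known to be made by club cells as well as by type 2 cells, and Sftpc by type 2 cells. Sftpc was 138, 206, 127, 105 and 97 CPM in the high tumors and 173, 117, 79.9, 83.7 and 31.7 in the low ones. These levels overlapped (0.48 ± 0.37, edgeR adjusted p = 0.46). Of the 14 alveolar type 2 genes, 13 had a positive fold change, with a median of 0.85, and 3 rose, against 1.24% of all genes (7 at an unadjusted p under 0.05, 6 by DESeq2). Other type 2 genes had positive values that missed the threshold, among them Lamp3 (1.96 ± 0.70), Cxcl15 (1.2 ± 0.42) and Sftpa1 (0.96 ± 0.50; edgeR adjusted p = 0.134 to 0.291). These 3 were named after their values were seen. The transporter genes Slc34a2 and Abca3 had log2 fold changes of 1.32 ± 0.40 and 0.46 ± 0.17 (edgeR adjusted p = 0.094 and 0.138). Among the 6 tumors between, 12 of the 14 had a positive slope, and within mice 13 of 14, with a median of 1.51 and 8 at an unadjusted p under 0.05 but 0 past the threshold. Sftpc was higher in the tumor of highest Scgb1a1 in 5 of 7 mice. The division did not hold in every set of tumors. In the 6 tumors between, the slope of Sftpc was 4.26 ± 1.44, beside 2.80 ± 1.48 for Sftpb and 2.67 ± 1.11 for Sftpd. Within mice the changes were 0.66 ± 0.45 for Sftpc, 2.12 ± 0.35 for Sftpb and 2.05 ± 0.40 for Sftpd. None of these slopes passed the threshold.

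Lists of other lung cells had 0 or 1 gene past the threshold. Of 12 alveolar type 1 genes 0 passed the edgeR threshold (1 higher at an unadjusted p under 0.05, 0 by DESeq2), with a median of 0.19, and Ager overlapped at 43.5 to 109 against 30.4 to 115 CPM. Type 1 slopes were positive in 7 of 12 genes among the 6 tumors between (median 0.11) and 11 of 12 within mice (0.42). They were positive in 7 of 12 in p107 and 11 of 12 in p130 tumors, with 0 past the threshold in each. Of 18 endothelial genes 0 passed as well (2 higher and 1 lower unadjusted, 1 higher by DESeq2), with a median of 0.01. The direction of the endothelial list varied with the set of tumors, with 0 past the threshold in each. Slopes were positive in 16 of 18 genes among the 12 tumors above 500 CPM (median 0.70), 12 of 18 within mice (0.19) and 5 of 18 in p107 tumors (−0.37). Pecam1 ranged over 35.0 to 58.7 CPM in the high and 20.9 to 72.2 in the low tumors. Of 16 macrophage genes 0 passed, also unadjusted and by DESeq2, with a median of 0.00. Macrophage slopes were positive in 6 of 17 genes among the 6 tumors between (median −1.38) and in 11 of 15 within mice (0.23). Among 12 fibroblast genes Npnt, the matrix protein nephronectin, rose (1.27 ± 0.27, edgeR adjusted p = 0.0416), and the list median was −0.36. Npnt was the 1 member called, against 1.24% of all genes called higher. T and NK cell transcripts had a median of 1.27 over 5 genes with 0 called (0 unadjusted, 0 by DESeq2). Their summed CPM was 128 in high tumor sgp107_6631T2 and 8.22 to 19.2 in the other 9 tumors, and the B and plasma cell sum was 844 in sgp107_6631T2.

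**Figure D4:**
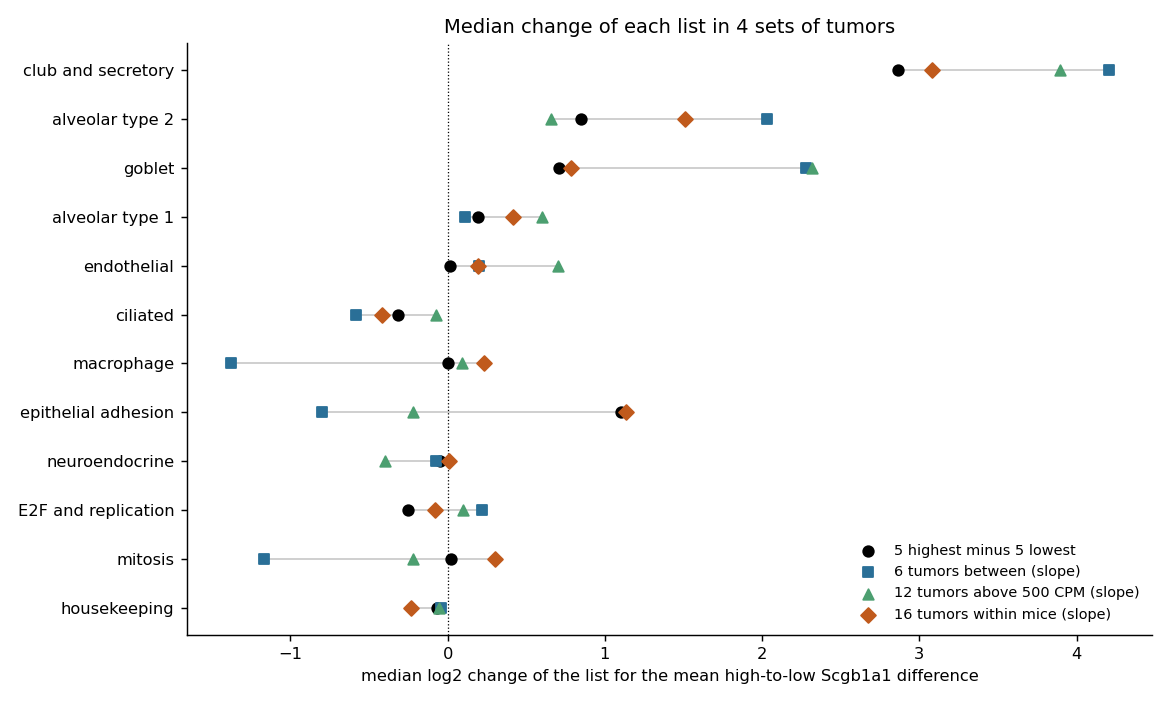
Median log2 change of 12 gene lists for the mean high-to-low difference in Scgb1a1, in the 5 against 5 comparison and as a slope in the 6 tumors between, the 12 tumors above 500 CPM and all 16 tumors within mice. The club and secretory list lies at 2.86 to 4.20 in all 4 sets, while the epithelial adhesion list lies at 1.10 and 1.14 in sets with the 4 lowest tumors and at −0.80 and −0.22 in sets without them.

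Beyond the lists, the genes that rose with the smallest p included further epithelial genes. Cldn2, a claudin of leaky epithelia, was 8.67, 8.81, 8.57, 6.97 and 7.44 CPM in the high tumors and 0.659, 0.32, 0.303, 0.34 and 0.211 in the low ones. The high tumors were nearly level and far above the low ones (4.44 ± 0.35, edgeR adjusted p = 0.00114). Col15a1, a basement membrane collagen, stood at 43.6 to 159 against 7.16 to 14.2 CPM (3.21 ± 0.37, adjusted p = 0.0132). Met, the receptor of hepatocyte growth factor, ranged over 27.7 to 66.8 against 2.0 to 9.08 CPM (3.30 ± 0.41, adjusted p = 0.0183). The complement regulator gene Cd55 (2.66 ± 0.33), the gap junction gene Gja1 (2.41 ± 0.35), Elf5 (3.39 ± 0.49), Ahr (2.10 ± 0.33), the coagulation starter gene F3 (2.94 ± 0.46), Fmo1 (3.40 ± 0.51) and Selenbp1 (3.19 ± 0.43) rose at edgeR adjusted p-values of 0.0183 to 0.0253. So did Tmem176a, Gramd2, Pnliprp1 and Spry1, an inhibitor of growth factor signaling, by 1.34 to 3.13 on the log2 scale. Within mice, the changes of the first 4 were 3.55 for Cldn2, 1.24 for Col15a1, 3.33 for Met and 0.71 for Cd55, none past the threshold (edgeR adjusted p = 0.142 to 0.707).

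No neuroendocrine transcript on the list passed the test. Of 21 listed genes 0 passed the edgeR threshold (1 higher and 2 lower at an unadjusted p under 0.05, 1 and 1 by DESeq2), 7 had a positive fold change and the median was −0.05. Chga, the gene of the granule protein chromogranin A, stood at 424, 585, 356, 287 and 384 CPM in the high tumors. In the low tumors it was 304, 280.3, 644, 560.0 and 1655 CPM, with the highest value in tumor sgp130_6697T1 and the other 4 within or near the range of the high tumors (−0.79 ± 0.47, edgeR adjusted p = 0.342). Calca, the calcitonin and CGRP gene, was 1846 to 7602 against 114 to 5631 CPM, lowest in sgp107_6627T1. Syp, synaptophysin, ranged over 164 to 195 against 153 to 491 CPM and Insm1 over 284 to 510 against 243 to 540 CPM. Uchl1, Ncam1 and Dll3 overlapped likewise, with log2 fold changes of −0.49, −0.66 and 0.18 (edgeR adjusted p = 0.295 to 0.756). The summed CPM of the list was 11030 to 17320 in the high and 8721 to 16450 in the low tumors. Among the 6 tumors between 10 of 21 genes had a positive slope, and within mice 12 of 21. Over p107 tumors alone 3 members fell with Scgb1a1: Grp (adjusted p = 0.0367), Ncam1 (adjusted p = 0.0154) and Syp (adjusted p = 0.0279), by edgeR, against 4.79% of all genes falling there, and mouse sgp107_6627 supplied both p107 tumors of low Scgb1a1.

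Nkx2-1, a factor shared by lung epithelium and these tumors, was 240 to 370 against 167 to 355 CPM (0.08 ± 0.23, edgeR adjusted p = 0.866). Proliferation genes gave no call in the pooled comparison either. Of 20 mitosis genes 0 passed the edgeR threshold (0 unadjusted, 0 by DESeq2) with a median of 0.02, and Mki67 was 958 to 1538 against 649 to 1922 CPM. The direction of the mitosis list varied with the set of tumors: 0 of 20 genes had a positive slope among the 6 tumors between (median −1.17), 5 of 20 among the 12 tumors above 500 CPM (−0.22) and 15 of 20 within mice (0.30), with 0 past the threshold in each. Of 25 E2F and replication genes 0 passed (6 lower at an unadjusted p under 0.05, 5 lower by DESeq2), with 3 positive and a median of −0.25. In 2 of the 25 all 5 high tumors lay below all 5 low ones. Over p107 tumors 23 of 25 had a negative slope and 2 fell past the edgeR threshold, against 4.79% of all genes. Among the 6 tumors between 18 of 25 had a positive slope. The engineered genes Rb1, Trp53, Rbl1 and Rbl2 had log2 fold changes of 0.13, −0.15, 0.03 and 0.12 (edgeR adjusted p = 0.683 to 0.98). Rbl1 reached 246 CPM in sgp107_6627T2, a p107 tumor, and such a level does not show whether the edited transcript is functional.

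Of the genes lower in the high tumors, several were unevenly spread over the low tumors. Tubb3, neuronal beta-tubulin, stood at 26.3, 12.4, 14.6, 9.12 and 35.8 CPM in the high tumors and at 41.9, 206, 158, 200 and 231 in the low ones. The 4 tumors of lowest Scgb1a1 held 158 to 231 CPM and sgp130_6638T4 held 41.9, beside the high tumors (−3.10 ± 0.51, edgeR adjusted p = 0.0259). In the 6 tumors between Tubb3 ranged from 5.89 to 57.8 CPM. Marcksl1 was 111 to 174 against 243 to 680 CPM (−1.76 ± 0.30, adjusted p = 0.0259) and Sgip1 0.283 to 0.963 against 4.99 to 36.1 CPM (−5.23 ± 0.59, adjusted p = 0.0132). Bcat1, a branched-chain amino acid transaminase, was 0.416 to 1.14 against 4.37 to 89.0 CPM (−5.4 ± 0.87, adjusted p = 0.0253), and Sms, spermine synthase, 29.2 to 40.8 against 60.3 to 104 CPM (−1.27 ± 0.19, adjusted p = 0.0253). Syce2, Nutf2, Wwox, Mex3a and Hist1h2ao, a histone gene with near-identical copies, fell by 1.18 to 1.60 on the log2 scale, and Trank1, Necab2, Cd1d1 and Fam135b by 3.11 to 6.47 (all edgeR adjusted p = 0.0253 to 0.0283). The zinc and manganese transporter gene Slc30a10 was at 0 to 0.0787 CPM in the high and 0.728 to 47.5 in the low tumors (edgeR adjusted p = 0.027). Within the 12 tumors above 500 CPM, none of these 15 genes passed the threshold, with edgeR adjusted p-values of 0.362 to 0.979. All 15 kept a negative change and the errors were wide. The high tumors and sgp130_6638T4, on which these genes were chosen, are among the 12, so a negative sign was favored there in advance. Changes for the mean high-to-low difference stayed large in Trank1 (−10.51 ± 4.06), Slc30a10 (−9.09 ± 3.63), Bcat1 (−4.7 ± 1.89) and Sgip1 (−4.33 ± 2.78), and were small in Marcksl1 (−0.58 ± 0.69). That of Tubb3 was −1.51 ± 1.01, so these 12 tumors do not show that the genes were level. In the 6 tumors between, which had no part in the choice, the signs were mixed and the errors wide. Slopes were positive in Trank1 (7.62 ± 14.38), Sgip1 (5.77 ± 7.88), Fam135b, Bcat1, Mex3a, Syce2, Nutf2 and Wwox. They were negative in Tubb3 (−1.97 ± 2.49), Marcksl1 (−1.75 ± 1.83), Necab2, Cd1d1, Hist1h2ao and Sms, and Slc30a10 was not tested there.

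Nfib and Mycl1, which are amplified in some mouse small cell lung cancers, were also uneven over the low tumors, each in its own way. Nfib was 435, 278, 202, 226 and 355 CPM in the high tumors and 458, 270, 1181, 1694 and 4008 in the low ones. Only sgp107_6627T2, sgp107_6627T1 and sgp130_6697T1 exceeded 500 CPM, and the difference was −2.38 ± 0.66 (edgeR adjusted p = 0.0779). Mycl1 was 60.8 to 111 CPM in the high tumors and 777, 85.2, 512, 60.8 and 562 in the low ones. It was thus highest in sgp130_6638T4, where Nfib and Tubb3 were near the high tumors, and lowest in sgp107_6627T1, where both were high (−2.27 ± 0.63, edgeR adjusted p = 0.0787). Of 8 MYC family and Nfib genes 0 passed the edgeR threshold, with 3 lower at an unadjusted p under 0.05 and 3 lower by DESeq2. Over p107 tumors Nfib fell with Scgb1a1 (−1.79 ± 0.32, edgeR adjusted p = 0.0195), against 4.79% of all genes. Its changes were −3.10 ± 0.64 over p130 tumors and −0.18 ± 0.57 among the 12 tumors above 500 CPM, neither past the threshold. Ephb2, an ephrin receptor, was 69.0 to 84.8 CPM in the high and 102 to 132 in the low tumors (−0.65 ± 0.13, edgeR adjusted p = 0.0388), while its within-mouse change was 0.01 ± 0.28. In the list of 13 NOTCH and non-neuroendocrine genes Ephb2 was the 1 member called, against 0.689% of all genes called lower. The list did not fall as a whole: 8 of the 13 had a positive fold change, with a median of 0.29. At an unadjusted p under 0.05, 4 were higher and 1 lower, and DESeq2 called 3 higher and 1 lower. Among the 12 tumors above 500 CPM 3 of the 13 rose with Scgb1a1 by edgeR, against 1.01% of all genes. These were Notch1 (3.21, edgeR adjusted p = 0.00974), Yap1 (2.45, adjusted p = 0.0223) and Wwtr1 (2.49, adjusted p = 0.0214).

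Genes of epithelial adhesion changed direction with the set of tumors. All 10 had a positive fold change, with a median of 1.10, and 1 rose, Cldn4 (2.79 ± 0.61, edgeR adjusted p = 0.0471), against 1.24% of all genes. Cdh1, E-cadherin, was 729 to 847 CPM in the high tumors, and 952, 1109, 402, 25.6 and 298 CPM in the low ones. Its 3 low values were those of sgp107_6627T2, sgp107_6627T1 and sgp130_6697T1, the tumors with the most Nfib. Among the 6 tumors between 1 of the 10 genes had a positive slope and the median was −0.80, and among the 12 tumors above 500 CPM it was −0.22, with Cldn4 at −0.01.

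**Figure D5:**
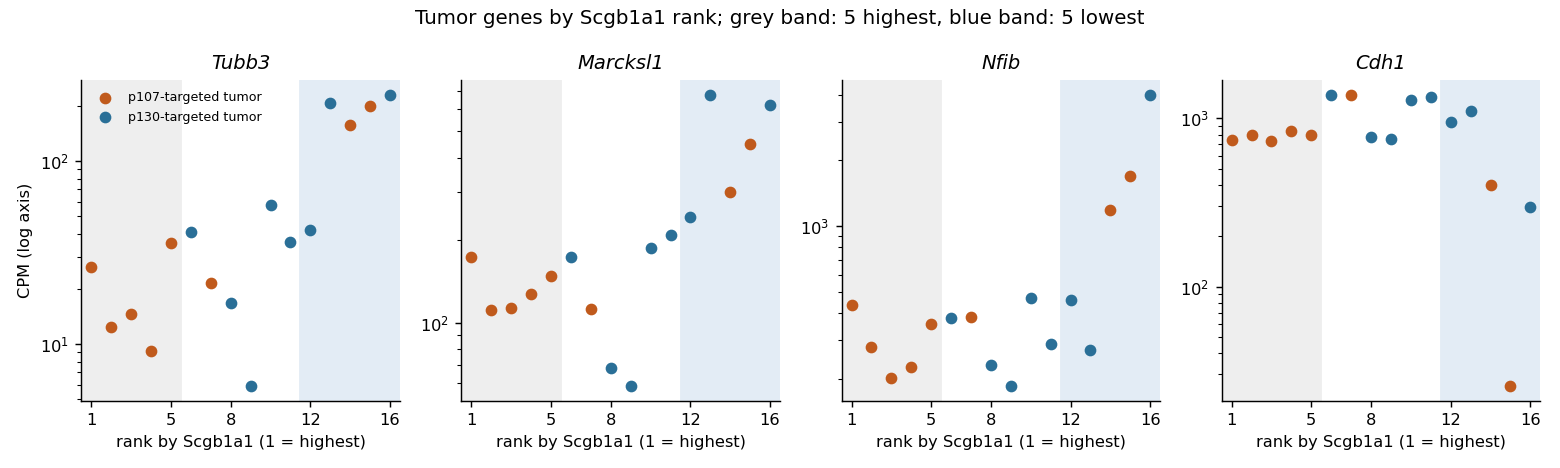
CPM on a log axis of Tubb3, Marcksl1, Nfib and Cdh1 in the 16 tumors ordered by Scgb1a1, colored by genotype. Tubb3 stands at 158 to 231 in the 4 tumors of lowest Scgb1a1 and at 5.89 to 57.8 in the other 12, and 3 of those 4 tumors have Nfib at 1181 to 4008 and Cdh1 at 25.6 to 402.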

How the data were processed

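RNA was sequenced from 16 mouse tumors of 7 mice. Estimated counts for 23224 gene rows were deposited by the authors; RSEM 1.2.12, Bowtie 1.0.1 and build mm9 are named per the submitters' processing notes. Neither annotation nor strandedness is given in the sources used here, so reads of overlapping or antisense genes may be mixed. A second table of normalized signal deposited by the authors (21523 rows, each tumor's counts times a constant) served as an alternative. Dates stand in place of symbols in 25 rows, which stayed unnamed.

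Estimated counts were rounded. edgeR 4.0.16 in R 4.3.3 fitted the 10 tumors with filterByExpr, TMM factors and a robust quasi-likelihood F test. P-values were adjusted by Benjamini-Hochberg across the tested genes, with 0.05 as threshold. A standard error is the log2 fold change divided by the root of F. Slopes on log2(Scgb1a1 CPM + 1) were multiplied by 4.72, the mean high-minus-low difference. Single genes were compared by an exact two-sided permutation test of mean log2(CPM + 1). The fits were tested on simulated data. Alternatives used limma 3.58.1, DESeq2 1.42.0, other scalings, filters and sets of tumors.

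Named were 27 set genes, up to 15 genes in each direction of smallest p (log2 change of at least 1, at least 5 CPM in the higher group) and up to 6 called members of each of 27 lists. The lists hold 330 entries, 3 without a symbol in the table. Other genes were named after their values were seen. The members, lists and tests were chosen with earlier results of these data known. The labels call the tumors biological replicates, but tumors of a mouse are not independent, and the p-values take them as such unless a mouse term is named. Promoter sequences are RefSeq's on GRCm38.p6. Scgb3a2, Hp and Scgb1a1 are named without a sequence. Certain listed genes are counted in their lists but not reported here by name.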

Additional observations from a re-analysis of the deposited data

Results flagged for a closer look

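In groups of 5 tumors, a named gene was marked when the gap between its most extreme tumor and the next, on log2(CPM + 1), exceeded 0.71 of the group's range. Chance alone marks about 1 in 20 groups, and 11 of 146 were marked. No explanation was tested.

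Low tumor sgp130_6638T4, the one at 740.5 CPM of Scgb1a1, was marked 6 times. Its Pon1 level was 10.5 CPM, against 0.579 to 0.907 in the other 4 low tumors, its Cbr2 level 97.3 CPM against 16.2 to 25.5, and its Aox3 level 7.29 CPM against 1.33 to 2.12. Sftpb stood at 101 CPM there against 27.1 to 35.1, and Elf5 at 2.73 CPM against 0.963 to 1.22. Tubb3 was the one gene with its mark on the low side in this tumor, at 41.9 CPM against 158 to 231.

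In tumor sgp130_6637T1, Syce2 was at 59.6 CPM against 39.1 to 42.9 in the other low tumors, and Ephb2 at 102 CPM against 126 to 132. In tumor sgp107_6627T2, Rbl1, the mutated gene of that group, was at 246 CPM against 63.2 to 78.1 in the other low tumors. Among the high tumors, Atp6v1c2 was at 39.5 CPM in sgp107_6630T2 against 8.95 to 13.7, and Bcat1 at 1.14 CPM in sgp107_6631T2 against 0.416 to 0.596.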

How the results depend on the processing

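The counts of genes called depended on the tumors used and on the test more than on scaling. From 185 higher and 103 lower, the counts moved to 833 and 932 with DESeq2, 424 and 516 with the mutated gene as a covariate, 1036 and 1278 with Scgb1a1 as a continuous term over 16 tumors, 123 and 37 with 3 against 3 tumors, and 0 and 0 with 8 against 8. They were 1 and 0 with a random mouse effect in voom, 1 and 0 with counts summed per mouse, 8 and 0 with the mouse as a fixed block over 16 tumors, and 3 and 10 without mouse sgp107_6627. They were 570 and 694 in p107 tumors (605 and 748 with a continuous term), 11 and 14 in p130 tumors and 697 and 722 in tumors with Y-linked transcripts. The lower count was 2 in the 12 tumors above 500 CPM and 167 with limma on the normalized table. Leaving out 1 tumor gave 1 to 567 higher and 0 to 478 lower. The 11 club and secretory calls became 19 with DESeq2, 21 with the continuous term, 18 in p107 tumors with a continuous term and in tumors with Y-linked transcripts, 6 with the fixed block, 4 in p130 tumors, and 0 with the random mouse effect, summed counts, 8 against 8 or no mouse sgp107_6627. Leaving out 1 tumor gave 0 to 19. The cause of these moves was not tested.

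In the 6 tumors between, leaving out 1 gave 70.2% to 85.6% of higher and 34.7% to 58.9% of lower genes in the same direction. Of 435 list medians, 69 moved by more than the spread between tumors. Hist1h2ao reversed to 0.087 and Ephb2 to 0.009 with the fixed block, and Cldn4 to −0.012 in the 12 tumors. Among the named genes, 588 values missed the threshold that the pooled comparison had passed and 37 newly passed it. Transcripts under about 1 CPM, such as Krt5, limit what can be compared.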

Other observations

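Red blood cell transcripts stood high in both tumors of 1 mouse, and B and plasma cell transcripts in 1 of these tumors. The summed CPM of 6 red blood cell genes was 607 in sgp107_6631T2 and 467 in sgp107_6631T1, the tumors of 1 mouse, against 4.06 to 131 in the other 14 tumors. The B and plasma cell sum was 844 CPM in sgp107_6631T2, against 3.39 to 29.4 in the other 15 tumors, and the joining chain gene Igj supplied 799 CPM of it. No red blood cell gene passed the edgeR threshold between the 5 highest and 5 lowest tumors (0 unadjusted, 0 by DESeq2), and none of the B and plasma cell genes did (2 higher unadjusted, 0 by DESeq2).

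The neutrophil list summed to 57.7 to 182 CPM in the high and 10.6 to 63.8 in the low tumors, with 1 of its 4 tested genes higher at an unadjusted p under 0.05, 0 called by edgeR and 1 by DESeq2. Its sum was mostly the lactoferrin gene Ltf, at 45.0 to 167 CPM in the high and 0.527 to 50.5 in the low tumors, while S100a8 and S100a9 were at most 1.36 CPM in these 10 tumors. The lung and foregut factor gene Foxa2 overlapped at 222 to 291 against 142 to 347 CPM, and Sox2 at 106 to 176 against 38.0 to 491 CPM. Among club genes outside the calls of the 5 against 5 comparison, Gsta3, a glutathione transferase gene, and Upk3a, a uroplakin gene, rose with Scgb1a1 in the 12 tumors above 500 CPM (4.42 and 4.13 on the log2 scale, edgeR adjusted p = 0.0015 and 0.00373).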
